A study of Mus musculus with 6 samples.

Results

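The 49 genes described here encode the nuclear subunits of respiratory complexes II to V, with cytochrome c and 3 genes that share their naming. They were taken from the 47967 genes of the count table, of which 21977 were protein coding, as the protein-coding genes whose symbols begin with the names of the succinate dehydrogenase (Sdha to Sdhd), cytochrome bc1 (Uqcr genes and Cyc1), cytochrome c (Cycs), cytochrome c oxidase (Cox4 to Cox8) and ATP synthase (Atp5) genes. Symbols chose them, and no measured value did. By complex they comprised 4 genes of complex II, 9 of complex III, 17 of complex IV and 15 of complex V, and Cycs stood alone. The other 3 were Cox7a2l, a factor that helps respiratory complexes join into supercomplexes, Atp5s, known as coupling factor B, and Atp5sl, its relative, and none of these 3 is counted below as a subunit.

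RNA was sequenced from a calf muscle, gastrocnemius, taken from C57BL/6 males aged 20 to 24 weeks. High phosphate (HP) mice ate a diet with 2.0% inorganic and 2.3% total phosphate for 12 weeks. Normal phosphate (NP) mice, the controls, ate one with 0.6% inorganic and 0.9% total phosphate for the same 12 weeks, and the diets did not differ in sodium (0.9%), calcium (1.9%), magnesium (0.3%) or potassium (1.8%). Each diet had 3 libraries of whole muscle, named HP1 to HP3 and NP1 to NP3, and the labels do not say that each came from a separate mouse, so the p-values speak for these libraries alone and their spread may be technical.

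The respiratory chain sits in the inner mitochondrial membrane, where complex II passes electrons from succinate to ubiquinone, complex III passes them on to cytochrome c, and complex IV passes them to oxygen. Complexes III and IV pump protons, and complex V, the ATP synthase, uses the returning protons to join ADP and inorganic phosphate into ATP. Several complex IV subunits exist in a form typical of heart and skeletal muscle and a form found in most tissues, each from its own gene.

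Libraries held 21856006 to 27474251 gene counts. The 37 genes of the mitochondrial genome were at 0 counts throughout, and the subunits they encode were not analysed here. CPM here and below are counts scaled to a library total that was adjusted by the trimmed mean of M-values (TMM). Of 12 skeletal muscle markers, which include creatine kinase, skeletal actin and the fast myosins, all 12 were detected. Together they gave 173486 to 214742 CPM in HP libraries and 63059 to 92451 CPM in NP libraries, so the labelled tissue was present in all 6. In whole muscle, fewer cells of a type and less RNA per cell cannot be told apart. Log2 fold changes are HP over NP, ± SE, from edgeR's quasi-likelihood test on the TMM scale with Benjamini-Hochberg adjustment over 15347 genes. With library size alone in place of TMM, the median log2 fold change over the genes tested was -0.49 instead of -0.016, so a direction under TMM is relative to a typical gene.

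By edgeR, most subunits of complexes II, III and V did not pass the test, whereas 3 subunit isoforms of complex IV fell on the high phosphate diet. These were Cox6a1 and Cox8a, the forms found in most tissues, and Cox4i2, a form known from lung, where muscle mainly uses Cox4i1. Among 47 genes tested, 3 rose and 3 fell at an adjusted p under 0.05, against 23.0% of all genes called higher and 26.3% called lower (49.3% in either direction), so both counts are smaller shares than those of all genes. The 3 that rose were Atp5g2, which encodes the c subunit of ATP synthase, Atp5s and Atp5sl. The other 41 had adjusted p-values of 0.0569 or more by edgeR's quasi-likelihood test, with a median SE of 0.19. Cox7b2 and Cox8c, both known from testis, had 0 counts in every library, which allows levels up to 0.137 to 0.156 CPM in HP and 0.106 to 0.115 CPM in NP libraries (3 counts, counting error only).

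The 3 decreases were called under all alternatives tried, while the 3 increases were not. With library size alone 0 genes of the set rose and 14 fell, beside 5.72% of all genes called higher and 51.4% lower (57.1% in either direction). On log2(FPKM + 1), a scale of reads per length and library total, 0 rose and 9 fell, beside 4.68% of all genes called higher and 36.8% lower (41.5% in either direction). With 0.1 added to FPKM 11 fell (38.9% of all genes), and with no filter 5 fell (15.8%). Without library NP1 15 genes of the set rose (22.2% of all genes). By DESeq2 13 rose (23.9%), at an adjusted p under 0.1 11 rose (27.9%), with the length trend removed 9 (27.3%), without a filter on low counts 6 (12.5%) and with the replicate block 4 (22.2%). The increase of Atp5g2 was also not called without HP3 (adjusted p = 0.0548 by edgeR's quasi-likelihood test).

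**Figure D1:**
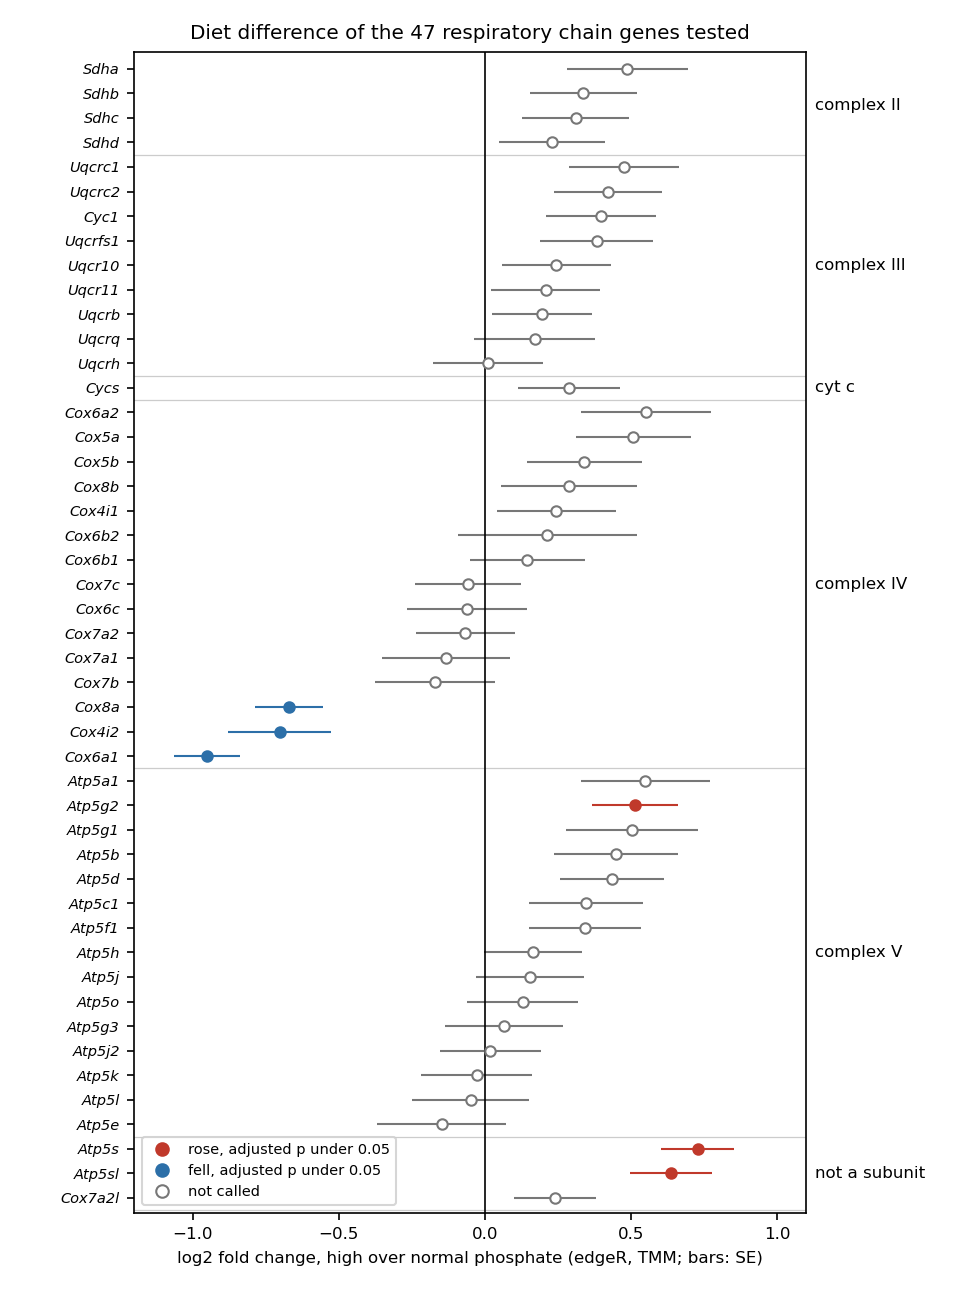
Log2 fold change, high over normal phosphate (x axis, bars are SE), of each tested gene, grouped by complex; filled points passed an adjusted p under 0.05. Cox6a1, Cox4i2 and Cox8a stand apart on the lower side at -0.95 to -0.67, while the 9 complex III genes all lie above 0 under TMM, which does not hold with library size alone, where the median of complex III was -0.21.

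In complex II, the succinate dehydrogenase, edgeR called 0 of 4 subunits, with 1 at an unadjusted p under 0.05, and DESeq2 called 1, Sdha, higher (adjusted p = 0.0158), beside 23.9% of all genes. Without NP1 edgeR called Sdhc higher. Sdha, the flavoprotein that oxidises succinate, had 1283, 1071 and 874 CPM in HP libraries and 867, 625 and 811 CPM in NP libraries. All HP libraries lay above all NP libraries, though HP3 was only just above NP1. Its log2 fold change of 0.49 ± 0.21 did not pass the test (adjusted p = 0.0764 by edgeR's quasi-likelihood test). Sdhb, which carries the iron-sulfur clusters, had a log2 fold change of 0.34 ± 0.18, and the membrane anchors Sdhc and Sdhd had 0.31 ± 0.18 and 0.23 ± 0.18. In these 3 the diets overlapped. The median log2 fold change of the complex was 0.32 with TMM, -0.14 with library size alone and -0.06 on log2(FPKM + 1), so its sign followed the scaling.

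In complex III edgeR called 0 of 9 subunits, with 2 at an unadjusted p under 0.05. DESeq2 called 3 higher, beside 23.9% of all genes: Uqcrc1 (adjusted p = 0.00895), Uqcrc2 (0.0244) and Cyc1 (0.0399). Without NP1 edgeR called these 3 and Uqcrfs1 higher. With the length trend removed, edgeR's quasi-likelihood test called Uqcrc1 (adjusted p = 0.0393) and Uqcrc2 (0.0496) higher, beside 27.3% of all genes. Uqcrc1, a core subunit, had 937, 865 and 735 CPM in HP libraries and 727, 511 and 587 CPM in NP libraries, with no overlap and a log2 fold change of 0.48 ± 0.19 (adjusted p = 0.0612 by edgeR's quasi-likelihood test). Uqcrc2, the other core subunit, had 0.42 ± 0.18, Cyc1, the cytochrome c1 that hands electrons on, had 0.40 ± 0.19, and Uqcrfs1, the Rieske iron-sulfur protein, had 0.38 ± 0.19. Among the small accessory subunits, Uqcr10, Uqcr11, Uqcrb and Uqcrq had log2 fold changes of 0.17 to 0.24 and Uqcrh, the hinge protein at cytochrome c1, had 0.01 ± 0.19. The diets overlapped in these 5 accessory subunits, and the gap between them and the larger subunits was of the size of the SEs. The median of the complex was 0.24 with TMM and -0.21 with library size alone. Cycs, the mobile carrier between complexes III and IV, had 246, 218 and 206 CPM in HP libraries and 221, 140 and 188 CPM in NP libraries. The diets overlapped for Cycs, and its log2 fold change was 0.29 ± 0.18 (adjusted p = 0.197 by edgeR's quasi-likelihood test), with 25.9% of its 50-base stretches also found in other annotated genes, so its reads may be split between copies.

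In complex IV the log2 fold changes of the nuclear subunits spanned -0.95 to 0.55 with a median of -0.06. The median was -0.52 with library size alone. Of 15 subunits tested by edgeR, 3 fell, 0 rose and 12 were not called, and 3 of 15 is a smaller share than the 26.3% of all genes called lower. With library size alone Cox6c, Cox7a1, Cox7a2, Cox7b and Cox7c were called lower too, as were Uqcrh of complex III and 5 genes of complex V, beside 51.4% of all genes. Cox6a1 had 26.3, 33.9 and 31.0 CPM in HP libraries and 59.8, 59.3 and 57.4 CPM in NP libraries. The highest HP library was well below the lowest NP library. Its log2 fold change was -0.95 ± 0.11 (adjusted p = 0.000524 by edgeR's quasi-likelihood test), a level in NP libraries 1.93 times that in HP libraries. Cox8a had 43.7, 55.3 and 44.8 CPM in HP libraries and 79.6, 73.2 and 76.2 CPM in NP libraries. Here too the diets did not overlap, and the log2 fold change was -0.67 ± 0.12 (adjusted p = 0.00191 by edgeR's quasi-likelihood test). Cox4i2, which was rare, had 2.89, 3.16 and 3.06 CPM in HP libraries and 5.13, 4.43 and 5.27 CPM in NP libraries, 59 to 144 counts. The diets were again separate, with a log2 fold change of -0.70 ± 0.18 (adjusted p = 0.00953 by edgeR's quasi-likelihood test). Over all alternatives, their adjusted p stayed at or under 0.0143 for Cox6a1, 0.0130 for Cox8a and 0.0367 for Cox4i2.

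The other complex IV subunits were not called in the main edgeR fit. DESeq2 called Cox5a (adjusted p = 0.0196) and Cox6a2 (0.0132) higher, and limma-voom (0.0479) and the replicate block (0.0421) called Cox5a. Without NP1 edgeR called Cox5a, Cox6a2 and Cox5b higher. By edgeR's quasi-likelihood test without a filter on low counts, Cox5a (adjusted p = 0.0184) and Cox6a2 (0.0303) were called, beside 12.5% of all genes. With the length trend removed the same test called Cox5a (0.0306) and Cox6a2 (0.0413), beside 27.3% of all genes. Cox5a, which faces the matrix, had 300.1, 297 and 266 CPM in HP libraries and 256, 146 and 204 CPM in NP libraries. The diets did not overlap, but the log2 fold change of 0.51 ± 0.20 came just short of the threshold (adjusted p = 0.0569 by edgeR's quasi-likelihood test). Cox5b, also on the matrix side, had 0.34 ± 0.20 and Cox6b1, on the outer side, 0.14 ± 0.20, both with overlapping diets. The small subunits Cox6c, Cox7b and Cox7c had log2 fold changes of -0.06, -0.17 and -0.06, each with an SE of 0.18 to 0.21, and their diets overlapped. Cox6b2, the testis form of Cox6b1, was near the floor at 0.642, 0.815 and 0.727 CPM in HP libraries and 0.651, 0.496 and 0.732 CPM in NP libraries.

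The genes of 3 complex IV subunits come as a muscle and a widespread isoform, and in 2 of these pairs the ratios of the 2 genes did not overlap between the diets. A ratio of 2 genes within a library does not depend on how libraries are scaled. Cox6a2, the muscle form of subunit VIa, had 880, 1014 and 922 CPM in HP libraries and 813, 454 and 655 CPM in NP libraries. Its diets did not overlap, with a log2 fold change of 0.55 ± 0.22 that missed the threshold (adjusted p = 0.0639 by edgeR's quasi-likelihood test). The count of Cox6a2 was 33.4, 29.9 and 29.7 times that of Cox6a1 in HP libraries and 13.6, 7.64 and 11.4 times in NP libraries. Every HP ratio was above every NP ratio, and the mean log2 ratio was 4.95 ± 0.10 in HP and 3.40 ± 0.43 in NP libraries (SD, n = 3 each), a ratio 2.92 times as high in HP libraries. The two-sided exact permutation p was 0.1, the smallest that 3 against 3 libraries allow, and 0.12 when adjusted over the 6 pairs compared.

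Cox8b, the muscle form of subunit VIII, had 549, 695 and 669 CPM in HP libraries and 691, 369 and 508 CPM in NP libraries, which overlapped (log2 fold change 0.29 ± 0.23, adjusted p = 0.325 by edgeR's quasi-likelihood test). Its count was 12.6, 12.6 and 14.9 times that of Cox8a in HP libraries and 8.68, 5.04 and 6.66 times in NP libraries. The ratios of the diets did not overlap, and the mean log2 ratio was 3.73 ± 0.14 in HP and 2.73 ± 0.39 in NP libraries (SD, n = 3 each), a 2.01-fold difference (two-sided exact permutation p = 0.1, and 0.12 adjusted over the 6 pairs).

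The third pair, Cox7a1 and Cox7a2, the muscle and widespread forms of subunit VIIa, showed no such separation. Cox7a1 had 299, 319 and 279 CPM in HP libraries and 446, 235 and 304 CPM in NP libraries. Cox7a2 had 313, 301 and 296 CPM in HP libraries and 389, 258 and 307 CPM in NP libraries. Both genes overlapped between the diets, with log2 fold changes of -0.13 ± 0.22 and -0.07 ± 0.17. The count ratio of Cox7a1 to Cox7a2 was 0.957, 1.06 and 0.943 in HP libraries and 1.15, 0.911 and 0.990 in NP libraries, a difference of -0.04 on the log2 scale (two-sided exact permutation p = 0.8), and it was 0.05 without NP1. Unlike Cox6a1 and Cox8a, Cox7a2 was about as abundant as its muscle partner.

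Per unit of length, RNA of the muscle forms made up most of the VIa and VIII pairs in every library, lowest in NP2 at 89.6% for Cox6a2 and 89.2% for Cox8b. On the authors' FPKM values, Cox6a2 was 97.2 ± 0.311% of the VIa pair in HP libraries and 92.0 ± 2.23% in NP libraries (SD, n = 3 each). Cox8b was 95.1 ± 1.30% of the VIII pair in HP and 90.5 ± 1.44% in NP libraries. Cox7a1 held a smaller share, 53.2 ± 2.35% of the VIIa pair in HP and 56.4 ± 2.82% in NP libraries. For subunit IV, Cox4i2 was 0.390 ± 0.0325% of the pair with Cox4i1 in HP libraries and 0.769 ± 0.145% in NP libraries. Cox4i1 itself had 732, 853 and 737 CPM in HP libraries and 826, 503 and 631 CPM in NP libraries, which overlapped. The Cox4i2 to Cox4i1 count ratio differed by -0.96 on the log2 scale (two-sided exact permutation p = 0.1, and 0.12 adjusted over the 6 pairs), beside log2 fold changes under TMM of -0.70 for Cox4i2 and 0.24 for Cox4i1.

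**Figure D2:**
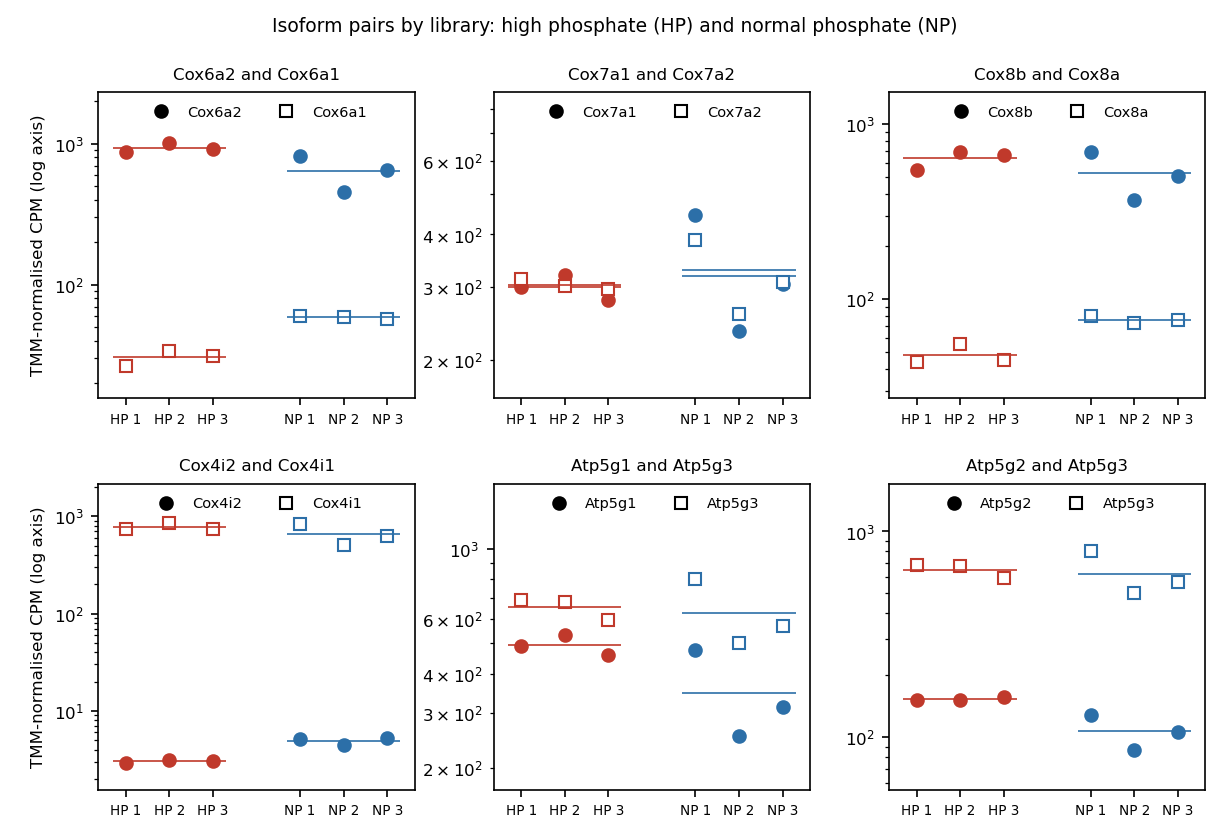
TMM-normalised CPM (log axis) of both genes of each pair in every library, HP red and NP blue, with a line at each diet's mean. The open squares of Cox6a1 and Cox8a are lower in all 3 HP libraries than in any NP library (for Cox6a1, 26.3 to 33.9 CPM in HP against 57.4 to 59.8 CPM in NP libraries), while the points of Cox7a1 and Cox7a2 overlap between diets.

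Promoter windows are shown for VIa and VIII genes, the muscle and widespread pairs whose ratios did not overlap between the diets. The ratios of Cox4i2 to Cox4i1 and of Atp5g1 and Atp5g2 to Atp5g3 did not overlap either, and their windows are not shown. Each window ends at the base before the gene's start and is given 5′ to 3′ on the gene's strand, from RefSeq on GRCm38.p6, with capitals marking matches to the core of the nuclear respiratory factor 1 motif, CGCATGC, or to the E-box CANNTG bound by myogenic factors, searched on both strands. In Cox6a1 the capitals are a CGCATGC match on each strand, which overlap, and no match of one motif overlaps one of the other. The window of Cox6a1 is 227 bases, without the part inside its annotated first exon, and the others are 250 bases. Cox6a1 lies at chr5:115348982-115349208, Cox8a at chr19:7217617-7217866 and Cox8b at chr7:140900447-140900696, all on the minus strand; Cox6a2 and Cox4i2 are only named.
Cox6a1: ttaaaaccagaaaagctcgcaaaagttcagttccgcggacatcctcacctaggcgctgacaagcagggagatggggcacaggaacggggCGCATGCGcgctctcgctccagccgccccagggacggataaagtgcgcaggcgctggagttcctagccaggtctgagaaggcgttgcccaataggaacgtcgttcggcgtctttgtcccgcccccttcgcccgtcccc
Cox8a: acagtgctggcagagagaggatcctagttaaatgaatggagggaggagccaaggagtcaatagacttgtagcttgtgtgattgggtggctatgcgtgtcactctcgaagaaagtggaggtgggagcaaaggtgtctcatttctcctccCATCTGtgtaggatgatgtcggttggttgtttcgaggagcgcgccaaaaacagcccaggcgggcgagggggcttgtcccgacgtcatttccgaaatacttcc
Cox8b: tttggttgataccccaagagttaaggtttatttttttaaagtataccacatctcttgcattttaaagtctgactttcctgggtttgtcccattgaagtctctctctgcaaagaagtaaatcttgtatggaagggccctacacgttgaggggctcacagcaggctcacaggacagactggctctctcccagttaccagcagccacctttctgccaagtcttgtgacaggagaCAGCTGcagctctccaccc

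The CGCATGC of Cox6a1 is held by 3.07% of 27025 RefSeq promoter windows of 250 bases, whereas 66.0% hold a CANNTG. Among the 35 genes of the set with a promoter in the table, 6 held CGCATGC, 8 held the GABPA motif CCGGAAG (7.05% of all windows), 22 held a CANNTG and 10 held the SP1 motif GGGCGG (32.9% of all windows). The ERR motif AAGGTCA was in 2 of the 35 and in 4.05% of all windows, and the MEF2 motif in 0 of the 35 and in 0.518% of all windows. These are matches of letters and show no binding.

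In complex V, the ATP synthase, edgeR called 1 subunit gene of 15, which was higher, beside 23.0% of all genes called higher. DESeq2 called 5, adding Atp5a1 (adjusted p = 0.00556), Atp5b (0.0140), Atp5d (0.0192) and Atp5g1 (0.0368), all higher, beside 23.9% of all genes. Without NP1 edgeR called Atp5a1, Atp5d and Atp5g1 beside Atp5g2. With the length trend removed, edgeR's quasi-likelihood test added Atp5a1 (adjusted p = 0.0410) and Atp5d (0.0345), beside 27.3% of all genes. Without a filter on low counts the same test added Atp5g1 (0.0393), beside 12.5% of all genes. The median log2 fold change of complex V was 0.16 with TMM and -0.30 with library size alone. The alpha and beta subunits, which form the head of ATP synthase, were among the most abundant genes of the set by count. Atp5a1, the alpha subunit, had 3400, 2758 and 2385 CPM in HP libraries and 2245, 1585 and 2011 CPM in NP libraries. The diets were separate for Atp5a1, but its log2 fold change of 0.55 ± 0.22 missed the threshold (adjusted p = 0.0638 by edgeR's quasi-likelihood test). Atp5b, the catalytic beta subunit, had 4099, 3526 and 3041 CPM in HP libraries and 3038, 2216 and 2564 CPM in NP libraries. HP3 was barely above NP1, and the log2 fold change was 0.45 ± 0.21 (adjusted p = 0.107 by edgeR's quasi-likelihood test).

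In the central stalk, which turns as protons flow, Atp5d (delta) had a log2 fold change of 0.43 ± 0.18, Atp5c1 (gamma) had 0.35 ± 0.19 and Atp5e (epsilon) had -0.15 ± 0.22, the lowest of complex V. For Atp5d the diets did not overlap, but HP3 and NP1 were almost tied at 391.4 and 391.2 CPM. In the peripheral stalk, which holds the head in place, Atp5f1 (subunit b) had 0.34 ± 0.19, and Atp5h (subunit d), Atp5j (F6) and Atp5o (OSCP) had 0.16, 0.15 and 0.13. The membrane subunits Atp5j2 (f), Atp5k (e) and Atp5l (g), which shape the ATP synthase dimer, had 0.02, -0.03 and -0.05. With library size alone Atp5e, Atp5j2, Atp5k and Atp5l were called lower, with log2 fold changes of -0.60 to -0.45.

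The c ring is made from Atp5g1, Atp5g2 and Atp5g3, which encode one mature protein behind different import sequences, and Atp5g2 was the subunit gene that rose. Atp5g2 had 152.6, 151.3 and 156.7 CPM in HP libraries and 129.1, 87.3 and 106.1 CPM in NP libraries. All HP libraries were above all NP libraries, with a log2 fold change of 0.51 ± 0.15 (adjusted p = 0.0181 by edgeR's quasi-likelihood test), against 0.05 with library size alone (adjusted p = 0.721 by the same test). Of its 50-base stretches, 38.4% occur in other annotated genes, so this value may include reads of copies. Atp5g1 had 490, 531 and 458 CPM in HP libraries and 477, 253 and 313 CPM in NP libraries, with an overlap between HP3 and NP1 and a log2 fold change of 0.50 ± 0.23 (adjusted p = 0.0915 by edgeR's quasi-likelihood test). Atp5g3 had 690, 679 and 592 CPM in HP libraries and 803, 501 and 570 CPM in NP libraries, which overlapped widely.

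Within a library, where scaling plays no part, Atp5g1 and Atp5g2 were higher relative to Atp5g3 in all HP libraries. The count of Atp5g1 was 0.710, 0.782 and 0.773 times that of Atp5g3 in HP libraries and 0.594, 0.506 and 0.549 times in NP libraries, a difference of 0.46 on the log2 scale. The count of Atp5g2 was 0.221, 0.223 and 0.265 times that of Atp5g3 in HP libraries and 0.161, 0.174 and 0.186 times in NP libraries, a difference of 0.44. Neither set of ratios overlapped between diets, and each had a two-sided exact permutation p of 0.1 and 0.12 adjusted over the 6 pairs.

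Outside the subunits, Atp5s had 24.0, 22.5 and 25.5 CPM in HP libraries and 16.2, 12.3 and 15.0 CPM in NP libraries. The diets were well apart, with a log2 fold change of 0.73 ± 0.13 (adjusted p = 0.00196 by edgeR's quasi-likelihood test). Atp5sl had 49.1, 52.7 and 40.4 CPM in HP libraries and 32.9, 25.5 and 33.0 CPM in NP libraries, again with no overlap, and a log2 fold change of 0.64 ± 0.14 (adjusted p = 0.00533 by edgeR's quasi-likelihood test). With library size alone these were 0.26 (adjusted p = 0.106) and 0.17 (adjusted p = 0.279) by the same test. Cox7a2l, the supercomplex factor, had a log2 fold change of 0.24 ± 0.14 and was not called.

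By complex, the shares of complex II and cytochrome c in the set did not overlap between the diets on FPKM, but on summed counts the shares of all 4 complexes and of cytochrome c overlapped. As a share of the summed FPKM of the whole set, with Cox7a2l, Atp5s and Atp5sl included, complex II was 4.50, 4.35 and 3.84% in HP libraries and 3.51, 3.74 and 3.77% in NP libraries. All HP shares of complex II were above all NP shares, the closest pair being HP3 and NP3, with means of 4.23 ± 0.349% in HP and 3.68 ± 0.145% in NP libraries (SD, n = 3 each, two-sided exact permutation p = 0.1, and 0.25 adjusted over 5 shares). Complex III was 18.2 ± 0.630% in HP and 17.2 ± 0.315% in NP libraries, complex IV 37.2 ± 1.63% in HP and 38.6 ± 0.685% in NP, and complex V 38.4 ± 0.842% in HP and 38.8 ± 0.237% in NP. For these 3 complexes the shares overlapped between diets, with two-sided exact permutation p-values of 0.2, 0.2 and 0.5. Cytochrome c was 1.26 ± 0.0970% in HP and 1.12 ± 0.0190% in NP libraries (two-sided exact permutation p = 0.1, and 0.25 adjusted). On summed counts of the set complex II was 9.48, 9.05 and 8.35% in HP libraries and 8.01, 8.52 and 8.77% in NP libraries, and the difference of complex V was 1.39 percentage points, the opposite sign to its -0.349 on FPKM. The FPKM shares rest in part on values that did not follow the counts. Atp5b had a log2 fold change of -0.32 on log2(FPKM + 1), but -0.02 from counts with library size alone, both scaled by library total. With CPM by library total, without TMM, its highest FPKM to CPM ratio among libraries was 1.65 times the lowest. This spread was 1.94 for Cox6c and 2.38 for Uqcrq. In 11 of 47 genes this spread exceeded 1.2.

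The set was also compared with the 12 skeletal muscle markers, a comparison added after values had been seen. The 49 genes took 2.23, 2.36 and 2.11% of all gene counts in HP libraries and 2.93, 2.23 and 2.44% in NP libraries, so these shares overlapped between diets. Divided by the counts of the 12 skeletal muscle markers they came to 13.1, 15.6 and 13.8% in HP libraries and 28.8, 27.6 and 23.6% in NP libraries. The diets were separate by this ratio, with a mean log2 ratio of -2.82 ± 0.13 in HP and -1.91 ± 0.15 in NP libraries (SD, n = 3 each, two-sided exact permutation p = 0.1). The difference was -0.91 for the whole set, -0.83 for complex II, -0.90 for complex III, -1.05 for complex IV and -0.87 for complex V. Of the 12 muscle markers 10 rose and 0 fell, beside 23.0% of all genes called higher and 26.3% lower. Their median log2 fold change was 1.01 (0.54 with library size alone, where 5 rose, beside 5.72% of all genes). The denominator was thus higher in HP libraries. Myh4 alone gave 70679 of its 214742 CPM in HP1 and 17225 of 92451 CPM in NP1. Myh4, Tnnt3, Tnni2 and Tnnc2 are also among the fast glycolytic markers below, so these lists are not separate.

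**Figure D3:**
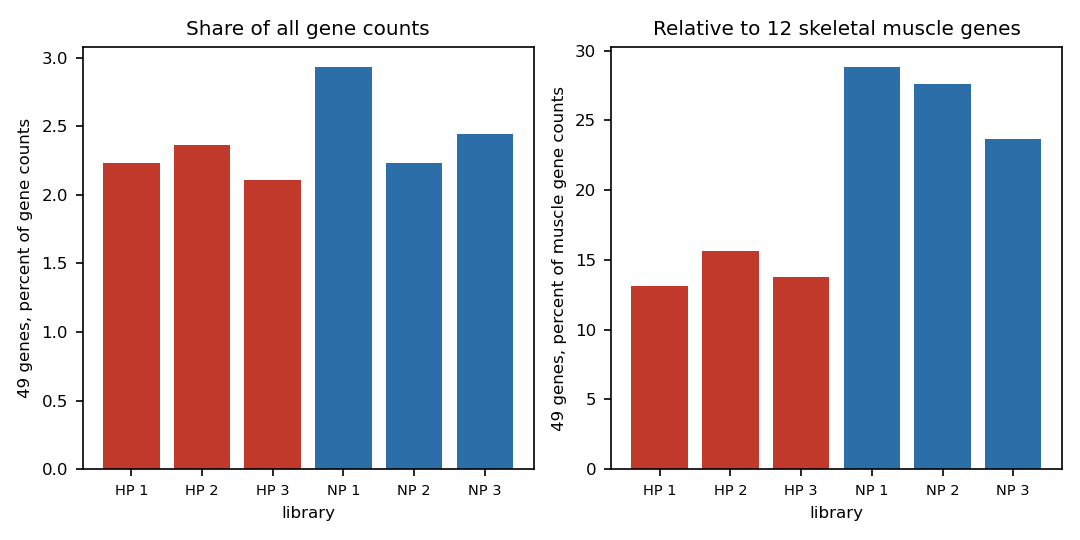
Summed counts of the 49 genes in each library, as percent of all gene counts (left) and as percent of the counts of 12 skeletal muscle genes (right), HP red and NP blue. The left bars overlap between diets at 2.11 to 2.36% in HP and 2.23 to 2.93% in NP libraries, and the right bars do not, at 13.1 to 15.6% in HP and 23.6 to 28.8% in NP libraries.

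Library by library, most genes of the set moved as a block within the normal phosphate diet. NP2 was the lowest NP library in 46 of 47 genes, compared with 40.5% of all genes tested, and the order NP1, NP3, NP2 from high to low held in 43 of 47 genes, compared with 22.5% of all genes. The highest NP library was a median of 1.52 times the lowest in the set and 1.30 times over all genes. In HP libraries the same ratio was 1.17 in the set and 1.24 over all genes. HP libraries lay above all NP libraries in 10 genes and below them in 3, and in 34 the diets overlapped, beside 30.3% of all genes with HP above, 32.1% with HP below and 62.4% with no overlap in either direction. Without NP2 the median log2 fold change of the set was 0.09, and without NP1 it was 0.42, against 0.24 with all libraries. Of the 3 genes that fell, Cox6a1 had NP3 lowest and its NP libraries close together at 57.4 to 59.8 CPM, Cox4i2 had NP2 lowest but NP3 highest, and Cox8a kept the order NP1, NP3, NP2 within 73.2 to 79.6 CPM.

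**Figure D4:**
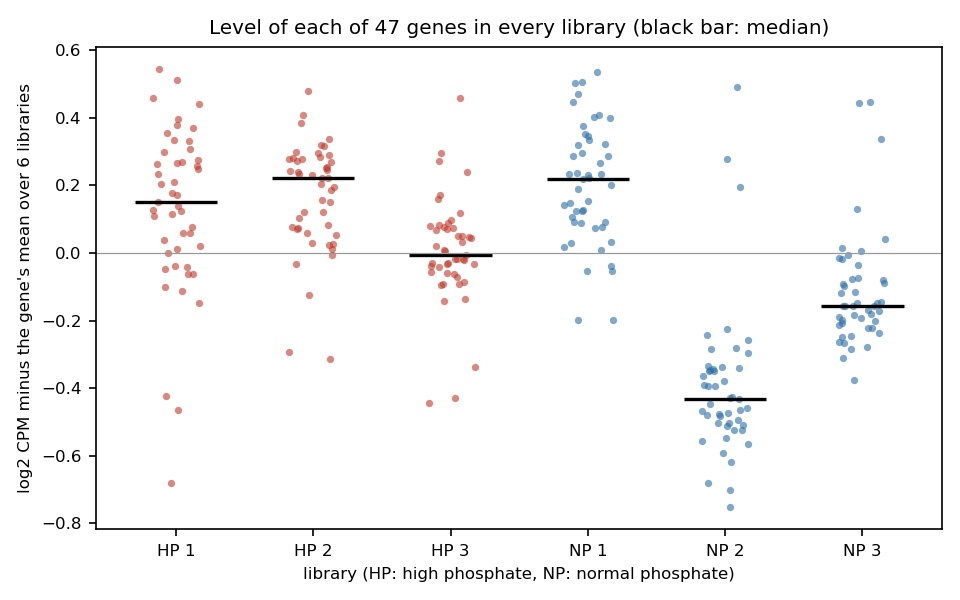
Log2 CPM of each of 47 genes minus its mean over the 6 libraries, 1 point per gene, HP red and NP blue, with a black bar at the median. NP1 sits level with HP1 and HP2, whereas NP2 holds the lowest points of its diet in 46 of 47 genes.

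Fold changes of the set also ranked with the length of the coding sequence. Across 44 subunits and cytochrome c, Spearman's rho between coding length and log2 fold change was 0.61, and 0.68 without the 3 genes that fell, given as a description since genes share libraries and are not independent. It was 0.56 in 36 complex I subunits, -0.02 over 13716 genes tested and 0.20 over 1575 genes with a mean of at least 100 CPM. The 16 genes with under 300 coding bases had a median log2 fold change of -0.01, the 17 with 300 or more but under 600 bases 0.23 and the 11 with 600 bases or more 0.40. Genes of at least 100 CPM had medians of 0.03, 0.23 and 0.49 in the same 3 bins. The rho of the set was 0.61 with library size alone, 0.50 on log2(FPKM + 1) and 0.50 to 0.67 when 1 library was left out. The part of RNA quality or library preparation in this ranking was not tested.

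**Figure D5:**
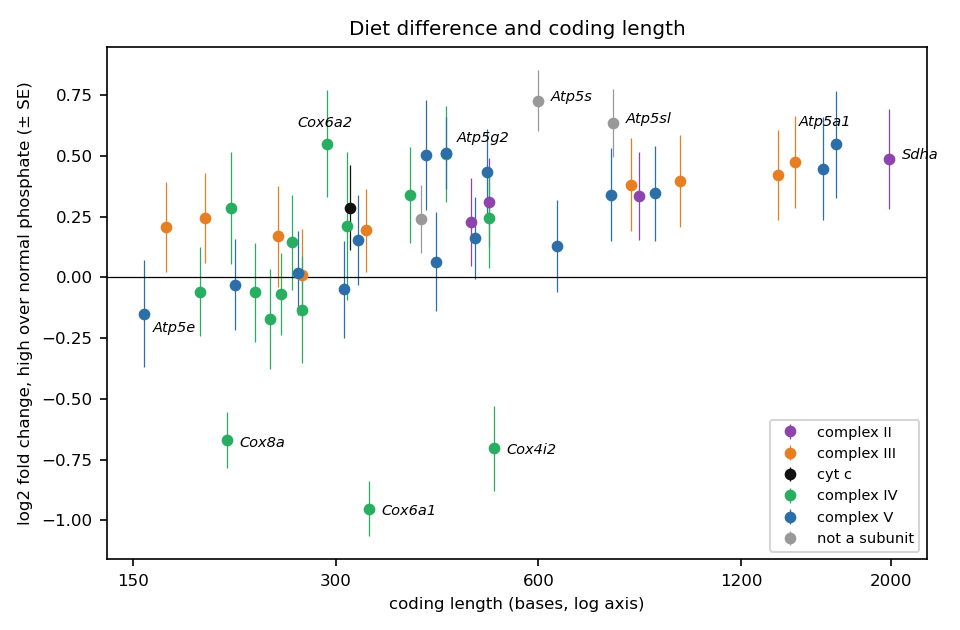
Log2 fold change, high over normal phosphate (± SE), against coding length in bases (log axis) for 47 genes, coloured by complex. Genes of 600 bases or more lie at 0.13 or above under TMM, which does not hold with library size alone, those under 300 bases spread over -0.67 to 0.55 with a median of -0.01, and Cox6a1, Cox8a and Cox4i2 are the 3 lowest points.

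Among genes that build and serve these complexes, called changes under TMM were mostly increases, and with library size alone most of these were not called. Over all genes 23.0% were called higher and 26.3% lower under TMM, and 5.72% higher and 51.4% lower with library size alone. Of 6 complex III assembly factors 4 rose and 0 fell, with a median log2 fold change of 0.65, and with library size alone 1 rose. Ttc19, which helps mature the Rieske protein, had 73.6, 69.9 and 67.4 CPM in HP libraries and 43.3, 35.2 and 42.0 CPM in NP libraries, far apart, with a log2 fold change of 0.81 ± 0.11 (adjusted p = 0.000785 by edgeR's quasi-likelihood test). Uqcc3 and Uqcc1, which act early in cytochrome b assembly, had 0.71 ± 0.12 and 0.75 ± 0.15.

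Of 25 complex IV assembly genes tested 10 rose and 0 fell with a median of 0.22, and with library size alone 2 rose and 3 fell. Coa5 had 267, 238 and 244 CPM in HP libraries and 151, 119 and 149 CPM in NP libraries, with separate diets and a log2 fold change of 0.84 ± 0.14 (adjusted p = 0.00168 by edgeR's quasi-likelihood test). Cox10, an enzyme of heme a synthesis, had 0.88 ± 0.16, and Taco1, an activator of translation of a mitochondrially encoded subunit, had 0.75 ± 0.14. Sco2 and Pet117 had 0 counts in every library, and 64.6% and 100% of their 50-base stretches lie in overlapping or similar genes. For complex II, Sdhaf3 rose (0.67 ± 0.18) and the other 3 assembly factors were not called.

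Around ATP synthase, the assembly factors Atpaf1 (0.90 ± 0.14) and Atpaf2 (0.37 ± 0.11) rose under TMM, and with library size alone Atpaf2 was not called (-0.10), nor without HP2 (adjusted p = 0.0632), HP3 (0.0763) or NP2 (0.0561) by edgeR's quasi-likelihood test. Of the 50-base stretches of Atpaf1, 21.7% occur in other annotated genes. Atpif1, the inhibitor that binds ATP synthase when it runs backwards, had 13.5, 15.4 and 13.2 CPM in HP libraries and 24.6, 24.2 and 16.9 CPM in NP libraries. The diets did not overlap, and Atpif1 fell with a log2 fold change of -0.64 ± 0.16 (adjusted p = 0.00873 by edgeR's quasi-likelihood test). Under TMM the muscle and widespread ADP/ATP carriers changed in opposite directions. Slc25a4, the muscle carrier, had 6245, 5504 and 4966 CPM in HP libraries and 3782, 2370 and 3355 CPM in NP libraries, with no overlap and a log2 fold change of 0.81 ± 0.23 (adjusted p = 0.0181 by edgeR's quasi-likelihood test), against 0.35 with library size alone (adjusted p = 0.0790 by the same test). It was also not called without HP1 (adjusted p = 0.0619) or HP2 (0.0510) by edgeR's quasi-likelihood test. Slc25a5, the widespread carrier, had 43.9, 55.8 and 40.1 CPM in HP libraries and 67.4, 72.6 and 67.6 CPM in NP libraries, again separate, with a log2 fold change of -0.57 ± 0.13 (adjusted p = 0.00644 by edgeR's quasi-likelihood test), and 33.8% of its 50-base stretches occur in other annotated genes. Slc25a3, which brings inorganic phosphate into the matrix for ATP synthesis, had 992, 1073 and 866 CPM in HP libraries and 860, 556 and 662 CPM in NP libraries. HP3 lay just above NP1, and its log2 fold change of 0.50 ± 0.20 was not called (adjusted p = 0.0657 by edgeR's quasi-likelihood test).

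Complex I, which feeds electrons from NADH into the same chain, had 6 of 36 subunits higher and 0 lower by edgeR, with a median log2 fold change of 0.29, beside 23.0% of all genes called higher and 26.3% lower. Without NP1 23 rose (22.2% of all genes), and with library size alone 0 rose and 7 fell (5.72% and 51.4% of all genes). The 3 with the smallest p were Ndufa12 (0.64 ± 0.17), Ndufs3 (0.59 ± 0.17) and Ndufa10 (0.51 ± 0.17). Ndufs3 was not called without HP1 (adjusted p = 0.0588) or HP2 (0.0540), nor Ndufa10 without HP1 (0.0765), HP2 (0.0905) or NP3 (0.0819), by edgeR's quasi-likelihood test.

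Most markers of several other cell types were lower in HP libraries, as were the 3 complex IV isoforms that fell. The part of these cells in the 3 decreases was not tested. Over all genes 23.0% were called higher and 26.3% lower, the shares to set beside the counts below. White adipocyte markers fell in 12 of 12, with summed levels of 641 to 1065 CPM in HP libraries and 2586 to 3311 CPM in NP libraries. Fibroblast markers fell in 8 of 8 (2296 to 2556 CPM in HP, 4580 to 10610 CPM in NP libraries), macrophage markers in 9 of 10 with 1 rising (393 to 582 CPM in HP, 1043 to 1980 CPM in NP), and endothelial markers in 7 of 8 (497 to 685 CPM in HP, 858 to 1036 CPM in NP). B cell markers fell in 6 of 6 (1.01 to 1.83 CPM in HP, 9.62 to 65.3 CPM in NP). A pericyte list, added after values had been seen because Cox4i2 is known from these cells, had 5 of 8 markers lower and 1 higher (1059 to 1267 CPM in HP, 1384 to 1474 CPM in NP libraries). Slow fibre markers fell in 8 of 11 (1087 to 1631 CPM in HP, 2543 to 3691 CPM in NP), and markers of fast glycolytic fibres rose in 10 of 12 (150816 to 194450 CPM in HP, 54136 to 79296 CPM in NP). Of 6 oxidative fast fibre markers 2 rose and 0 fell, with a median log2 fold change of 0.69. Their summed levels overlapped between the diets (5721 to 8820 CPM in HP, 4080 to 5803 CPM in NP libraries). Brown adipocyte markers had 3 higher and 2 lower of 9 tested, not far from the shares of all genes (299.3 to 454.0 CPM in HP, 178 to 263 CPM in NP libraries), with the defining gene Ucp1 at 0.0519 CPM or less in every library. Of 4 heart markers tested 0 were called (56.2 to 801 CPM in HP, 312 to 531 CPM in NP libraries), and Myl7, a defining atrial gene, was at 0 in every library. The 3 genes of the set that fell were each called lower with any 1 library left out.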

How the data were processed

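RNA was measured in 6 gastrocnemius libraries, 3 per diet, assigned and numbered from the sample labels, and no library was left out. The deposited counts are whole-number read counts per Ensembl gene, not normalised, and for 38011 of the 47967 genes the authors deposited FPKM, reads scaled by gene length and library total. The tools named in the submitters' processing notes, without roles, were DESeq2 1.6.3, featureCounts 1.4.6, HISAT2 2.0.1 and Trim Galore 0.4.1, and the build GRCm38. The sources used here do not give the annotation release, the strand setting or the way FPKM was made. Reads of overlapping antisense genes could therefore not be told apart.

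Counts were tested with edgeR 4.0.16 (R 4.3.3): TMM, filterByExpr, robust quasi-likelihood F test and Benjamini-Hochberg adjustment over 15347 genes, called at an adjusted p under 0.05. An SE is the log2 fold change divided by the square root of F. At the smallest depth, 21856006 counts, precision was set by the spread between libraries (chi-square per degree of freedom of 18.3 or more between libraries of one diet). Isoform ratios had 0.5 added to each count, and ratios and shares were compared by two-sided exact permutation (scipy 1.17.1). Coding lengths, gene positions and 50-base stretches found in other genes came from GENCODE M21, and promoters from RefSeq on GRCm38.p6.

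All genes of the set are accounted for. Values per library are given for the isoform pairs and the called genes, with further genes whose adjusted p came near the threshold, chosen after their values were seen. Of other lists up to 3 called genes per direction by smallest p are named, with Slc25a3, Slc25a4 and Atpif1, and with Vdac1 and Ckmt2, chosen after their values were seen. The genes and lists were chosen with earlier results of these data known. Alternatives for the scaling were library size alone, relative log expression size factors and TMM computed after dropping the 50 top genes. Alternatives for the test were DESeq2 1.42.0, limma-voom (limma 3.58.1), limma on log2(FPKM + 1) or log2(FPKM + 0.1), a replicate block, a length trend taken out and a looser threshold of 0.1. Other filters and the omission of each library were also run. In a simulated table with known changes, the changes called by the edgeR fit had the right sign, most of the smallest changes were missed, and the share of false calls was above the threshold.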

Additional observations from a re-analysis of the deposited data

How the results depend on the processing

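The decreases of Cox6a1, Cox8a and Cox4i2 and the ratios Cox6a2/Cox6a1, Cox8b/Cox8a, Cox4i2/Cox4i1, Atp5g1/Atp5g3 and Atp5g2/Atp5g3 kept their direction under every alternative run for them, whereas the increases depended on scaling, and the cause was not tested. The fits that removed the increases shifted the median gene downward, and an equal upward shift was not tried on the decreases. The number of genes higher on the high phosphate diet was 3528 with TMM, 878 with library size alone, 718 on log2(FPKM + 1), 742 on log2(FPKM + 0.1) and 566 on log2(FPKM + 1) without a filter, and 7886 were lower with library size alone. In the set of 47 genes, 11 were higher at an adjusted p under 0.1 (27.9% of all genes) and 6 without a filter on low counts (12.5%). With the length trend removed 9 were higher (27.3%), and by DESeq2 13 (23.9%). With library size alone 0 were higher (5.72%) and 14 lower (51.4%). On FPKM 0 were higher (1.8 to 4.83% of all genes). Lower were 9 with FPKM + 1 (36.8%), 11 with FPKM + 0.1 (38.9%) and 5 with FPKM + 1 without a filter (15.8%). Leaving out 1 library gave 2 to 15 higher, the 15 without NP1, beside 17.4 to 22.2% of all genes (22.2% without NP1). Same-numbered libraries did not deviate together (correlations of -0.02, 0.02 and 0.02), so the numbers do not pair them, and with the replicate block 4 genes of the set were higher, Cox5a added, and 3 lower, with 3407 genes higher and 3921 lower in all.

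The median log2 fold change with library size alone was -0.22 over the set, -0.14 in complex II, -0.21 in III, -0.52 in IV, -0.30 in V and -0.18 for Cycs. On log2(FPKM + 1), with or without a filter, these were -0.18, -0.056, -0.081, -0.36, -0.31 and -0.076 in the same order, and with 0.1 added -0.19, -0.056, -0.081, -0.36, -0.31 and -0.076. The difference in log2 ratio of Cox7a1 to Cox7a2 was -0.19 on FPKM. From summed counts the share of complex III differed by 0.157 percentage points, that of V by 1.39 and that of Cycs by 0.00486. Without the most abundant gene of each complex, the share of III differed by 1.71.

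Uncalled fold changes of the opposite sign with library size alone were -0.13 for Sdhb, -0.15 for Sdhc, -0.24 for Sdhd, -0.070 for Cyc1, -0.21 for Uqcr10, -0.25 for Uqcr11, -0.27 for Uqcrb, -0.053 for Uqcrc2, -0.084 for Uqcrfs1, -0.28 for Uqcrq, -0.21 for Cox4i1, -0.12 for Cox5b, -0.31 for Cox6b1, -0.25 for Cox6b2, -0.16 for Cox8b, -0.024 for Atp5b, -0.12 for Atp5c1, -0.029 for Atp5d, -0.13 for Atp5f1, -0.30 for Atp5h, -0.31 for Atp5j, -0.33 for Atp5o, -0.18 for Cycs and -0.22 for Cox7a2l. Called lower there were Uqcrh at -0.46, Atp5g3 at -0.40 and Atp5j2 at -0.45. On log2(FPKM + 1) the opposite signs were -0.12 for Sdhc, -0.21 for Sdhd, -0.046 for Cyc1, -0.19 for Uqcr10, -0.22 for Uqcr11, -0.24 for Uqcrb, -0.081 for Uqcrc2, -0.064 for Uqcrfs1, -0.42 for Uqcrh, -0.18 for Cox4i1, -0.085 for Cox5b, -0.18 for Cox6b1, -0.18 for Cox6b2, -0.16 for Cox8b, -0.32 for Atp5b, -0.079 for Atp5c1, -0.10 for Atp5d, -0.10 for Atp5f1, -0.37 for Atp5g3, -0.31 for Atp5h, -0.26 for Atp5j, -0.34 for Atp5j2, -0.35 for Atp5o, -0.076 for Cycs and -0.21 for Cox7a2l. The values were equal to 2 decimals without a filter, and with 0.1 added except -0.36 for Cox6b2 and -0.22 for Cox7a2l.

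With at least 1 CPM in 3 libraries Uqcrh had -0.0066, and with the length trend removed Cox6c had 0.012 and Atp5l 0.0020. Leaving out 1 library gave -0.12 to 0.20 for Uqcrh, -0.22 to 0.16 for Cox6c, -0.33 to 0.15 for Cox7a1, -0.20 to 0.11 for Cox7a2, -0.31 to 0.062 for Cox7b, -0.22 to 0.15 for Cox7c, -0.34 to 0.11 for Atp5e, -0.072 to 0.29 for Atp5g3, -0.090 to 0.18 for Atp5j2, -0.19 to 0.17 for Atp5k and -0.21 to 0.21 for Atp5l.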

Other observations

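The outer mitochondrial membrane channels and the mitochondrial creatine kinase, which pass ADP and ATP between the ATP synthase and the cytosol, rose on the high phosphate diet under TMM and were not called with library size alone. Vdac1 had 1792, 1481 and 1468 CPM in HP libraries and 1174, 758 and 1025 CPM in NP libraries, a log2 fold change of 0.68 ± 0.21. Vdac2 had 0.63 ± 0.16 and Vdac3 had 0.58 ± 0.17. Ckmt2, the muscle form of the mitochondrial creatine kinase, had 1641, 1544 and 1067 CPM in HP libraries and 1064, 650 and 802 CPM in NP libraries, with HP3 only just above NP1 and a log2 fold change of 0.76 ± 0.24. With library size alone the values were 0.21 for Vdac1, 0.17 for Vdac2, 0.11 for Vdac3 and 0.29 for Ckmt2. By edgeR's quasi-likelihood test, the call of Vdac1 was also lost without HP1 (adjusted p = 0.0809), HP3 (0.0512) or NP3 (0.0559), that of Vdac3 without HP1 (0.0759), and that of Ckmt2 without HP1 (0.0931), HP2 (0.0834), NP2 (0.0505) or NP3 (0.0754). Of the 50-base stretches of Vdac3, 12.8% occur in other annotated genes.

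Where the counts and the authors' FPKM values of one gene are set side by side, they did not always move together. In 11 of the 47 genes tested the highest FPKM to CPM ratio among the libraries was more than 1.2 times the lowest, with CPM by library total in this ratio. The largest spread was in Uqcrq, a small subunit of complex III, at 2.38 times. Its FPKM values were 198, 257 and 524 in HP libraries and 327, 223 and 254 in NP libraries. Its CPM values, scaled by TMM, were 402, 472 and 424 in HP libraries and 503, 289 and 361 in NP libraries. HP3 stood far above the rest by FPKM and among the others by CPM.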
